A study of Mus musculus with 4 samples.

Results

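The interferon-stimulated genes were followed in the small intestine of wild-type mice and of mice that lack Cftr, the chloride and bicarbonate channel that is defective in cystic fibrosis (CF), with and without lubiprostone. The members were taken by gene symbol from a list of 39 genes, by a rule that uses no measured value. Of the 39 genes, 37 had a probe set of their own on the array and all 37 passed the filter on low signals described below, among 12259 genes that passed it in all. Ifi44 was not analysed here, and Isg15 was represented by a probe set listed for both Isg15 and Gm9706.

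Cells that detect viral or microbial nucleic acids secrete interferons, which act on receptors of the same and neighbouring cells. The receptors signal through JAK kinases to STAT proteins, which enter the nucleus as pairs, with or without IRF9, and switch on a shared set of antiviral and immune genes. In the intestinal epithelium type III interferons act beside type I and type II, and part of the programme runs at a tonic level under the influence of commensal microbes.

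There were 4 groups of mice, all with the C57BL/6 background (C57BL/6J in the methods) and all fed the liquid diet Peptamen. WT control and CF control mice were untreated, and WT + lubiprostone and CF + lubiprostone mice were gavaged daily for 2 weeks with lubiprostone in Peptamen (10 µg/kg/day). CF mice were homozygous for the null allele Cftr-tm1Unc, in all their cells, and WT mice were their littermates. Lubiprostone is a bicyclic fatty acid used against constipation that can activate the chloride channel ClC-2. Total RNA of the entire small intestine was pooled in equal amounts within a group and hybridized to 1 Affymetrix whole-genome mouse array, which makes 1 value for a probe set and a group. The methods give 8 WT control mice and 7 treated WT mice, with 10 CF control and 8 treated CF mice, whereas the text deposited with the arrays gives 10 WT control mice. No difference between arrays could be set against a spread between mice, so no test was possible and every ratio below describes these 4 pools. In RNA of a whole organ, fewer cells of a type and less RNA per cell cannot be told apart.

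The values, called signals, are intensities in arbitrary units. Each combines the probes of 1 probe set, and they were scaled so that the mean without the highest and lowest 2% was 500.0 on each array. Median signals were 124 on the WT control array, 123 on WT + lubiprostone, 109 on CF control and 120 (119.6) on CF + lubiprostone. Probe sets that reached the median of an array at least 1 time in 4 were kept, and a gene's log2 ratio is the mean over its kept probe sets. A gene is called higher or lower here when its ratio passed 1.5-fold, and the study's own threshold of 3-fold is given beside it. Where the lower signal of a gene lay below the median of its array, the fold is given as a lower bound with that signal set to the median. Of the 8 enterocyte markers that were kept, all reached the 75th percentile of an array, so markers of the labelled tissue were present. Cftr had signals of 870 (870.5), 595, 171 and 176, in the order (used for 4 signals throughout) of WT control, WT + lubiprostone, then CF control and last CF + lubiprostone, so it was lower on both CF arrays.

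Interferon-stimulated genes were highest on the CF + lubiprostone array almost throughout the list. For 33 of the 37 measured genes (89.2%) that array held the highest of the 4 signals, against 26.6% of all genes. None of the 37 had its lowest signal there. The exceptions were Irf1 and Zbp1, which were highest on the CF control array, and Ifit3 and Ube2l6, which were highest on the WT control array. In 22 genes the signals ran in 1 order, with CF + lubiprostone above CF control and CF control above both WT arrays. In 6 genes CF control lay below both WT arrays and CF + lubiprostone above them. The shares of all genes with these orders were not counted, so whether such orders are unusual on these arrays is not known. Mx2 reached the median only on the CF + lubiprostone array, so it entered the list through the array where it was high, and the other 36 genes reached the median on at least 3 arrays. By its mean signal Dhx58 was the 1 gene among them below it on an array, WT control. Of its 2 kept probe sets, 1 was below the median there (63.3) and 1 above (188).

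**Figure D1:**
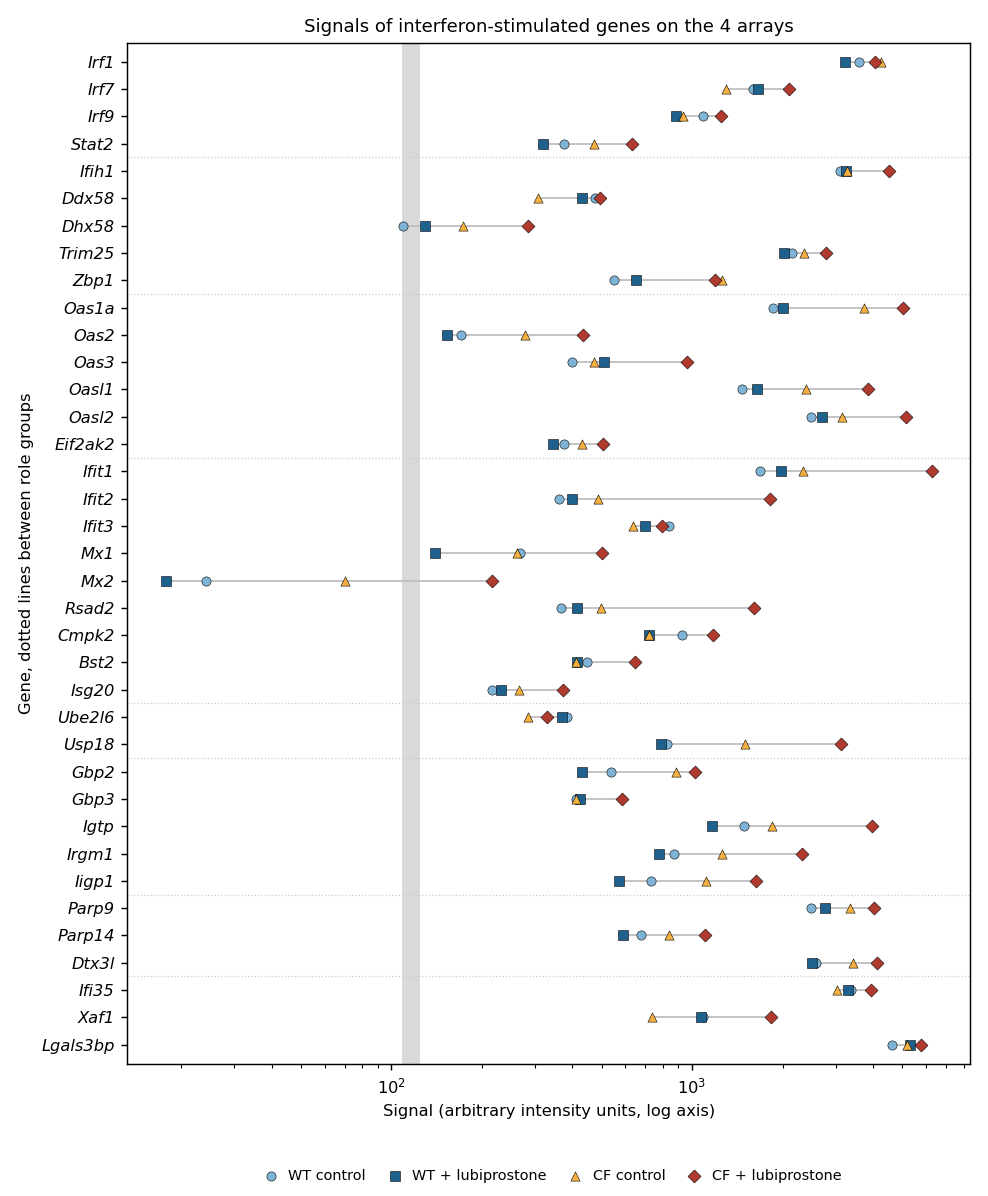
Signals of the 37 measured interferon-stimulated genes on the 4 arrays (1 point per array, log axis in arbitrary intensity units), in groups by role. The grey band spans the medians of the arrays (109 to 124), and the CF + lubiprostone diamonds lie to the right of the other 3 points in 33 of 37 genes.

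Promoters of members are shown because signalling by interferon acts through short elements close to the start of transcription, and because they let neighbours with like elements be set beside their signals. The 2 elements looked for on both strands were the core of the interferon-stimulated response element (ISRE), GAAANNGAA, bound by STAT and IRF proteins, and the gamma-activated site (GAS), TTCNNNGAA, bound by STAT pairs. The sequences are RefSeq promoters of GRCm38.p6, each printed 5′ to 3′ on the strand of its gene over the 250 bases before the start, with ISRE core and GAS matches in capitals. Ifit1 (chr19:34640639-34640888, plus strand) and Ifit3 (chr19:34583279-34583528, plus strand) hold 3 ISRE cores each, Oas3 (chr5:120777660-120777909, minus strand) holds 2, Igtp (chr11:58199306-58199555, plus strand) holds 1 of each element and Irf1 (chr11:53769764-53770013, plus strand) holds 1 GAS and no ISRE core. In Ifit1, Ifit3 and Oas3 the matches overlap or lie close together.
Ifit1: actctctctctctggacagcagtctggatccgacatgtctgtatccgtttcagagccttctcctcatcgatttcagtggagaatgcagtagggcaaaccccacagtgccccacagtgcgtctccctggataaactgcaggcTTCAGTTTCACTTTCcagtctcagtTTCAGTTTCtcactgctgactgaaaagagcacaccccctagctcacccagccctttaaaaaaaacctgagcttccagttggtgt
Ifit3: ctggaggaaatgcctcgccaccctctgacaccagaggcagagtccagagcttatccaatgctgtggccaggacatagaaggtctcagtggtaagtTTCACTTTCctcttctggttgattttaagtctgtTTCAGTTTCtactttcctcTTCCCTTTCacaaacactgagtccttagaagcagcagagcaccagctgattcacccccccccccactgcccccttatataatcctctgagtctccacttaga
Oas3: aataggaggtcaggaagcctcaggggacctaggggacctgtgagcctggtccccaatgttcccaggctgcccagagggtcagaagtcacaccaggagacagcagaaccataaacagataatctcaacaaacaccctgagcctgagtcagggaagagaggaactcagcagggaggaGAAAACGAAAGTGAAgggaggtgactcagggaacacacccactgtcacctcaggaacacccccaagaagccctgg
Igtp: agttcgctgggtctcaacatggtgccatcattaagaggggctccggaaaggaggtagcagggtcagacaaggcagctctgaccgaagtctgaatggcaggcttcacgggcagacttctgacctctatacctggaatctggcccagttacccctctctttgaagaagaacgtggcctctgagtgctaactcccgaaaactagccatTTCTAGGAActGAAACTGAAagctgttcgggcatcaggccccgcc
Irf1: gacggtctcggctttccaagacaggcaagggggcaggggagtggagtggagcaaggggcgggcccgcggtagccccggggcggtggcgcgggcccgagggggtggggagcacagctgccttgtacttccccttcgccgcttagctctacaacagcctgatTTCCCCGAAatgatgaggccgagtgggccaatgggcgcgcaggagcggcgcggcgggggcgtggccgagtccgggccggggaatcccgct

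Of the 39 listed genes, 30 had an entry among these promoters, and 14 of the 30 genes (46.7%) held an ISRE core, against 8.18% of 27025 genes with a promoter. By promoter, the share was 38.9% of 36 against 7.13% of 32851. GAS stood in 7 of the 30 genes (23.3%, against 8.13%) and both elements in 3 (10.0%, against 0.881%). A match is a description of letters in this window, not a measured site. Among members with signals of their own, the 13 genes with an ISRE core had a median log2 ratio of 0.51 in CF + lubiprostone over CF control (0.21 to 1.69) and the 15 genes without had 0.49 (-0.06 to 1.90), and the ranges overlapped over most of their length. In CF + lubiprostone over WT + lubiprostone the medians were 0.98 with the element (0.19 to 1.96) and 0.55 without it (-0.16 to 2.18). These ranges overlapped too, and the highest ratio was in a gene without the element. Ifit2, the gene with the highest ratio in CF + lubiprostone over CF control, had a GAS and no ISRE core in its window.

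Lubiprostone in CF mice went with higher signals across the list. Of the 37 genes, 35 had a ratio above 1 in CF + lubiprostone over CF control and their median log2 ratio was 0.56, beside 0.01 over all 11795 genes compared. At 1.5-fold 18 genes were higher (17 of 36 without Mx2) and none was lower, where 9.43% of all genes were higher and 6.43% lower. At 3-fold 2 genes were higher (Ifit2 and Rsad2), or 3 with Mx2 taken by its raw signal below the median, and none was lower, against 0.941% and 0.738% of all genes. The count at 1.5-fold depended on the scaling, and with the arrays set to the same median 11 members were higher, beside 6.54% of all genes higher and 10.3% lower. That scaling shifts every ratio of a comparison by the same amount and moved the median of all genes to -0.12.

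In WT mice the same genes lay on both sides of 1 with lubiprostone. In WT + lubiprostone over WT control 15 of 36 genes had a ratio above 1 and 21 below, and the median was -0.05, beside -0.0034 over all 11691 genes. No member was higher at 1.5-fold and 1 was lower (Mx1), where 4.46% of all genes were higher and 5.07% lower. None passed 3-fold in either direction, against 0.488% higher and 0.573% lower among all genes. The comparisons of lubiprostone in WT and in CF mice share no array, and the CF log2 ratio was above the WT one in 34 of the 36 genes with both, by a median of 0.59, against 51.2% of 11227 genes and a median of 0.01. Zbp1 and Lgals3bp were the exceptions. Whether the lubiprostone ratio differed between the genotypes could not be tested with 1 pool on each side.

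**Figure D2:**
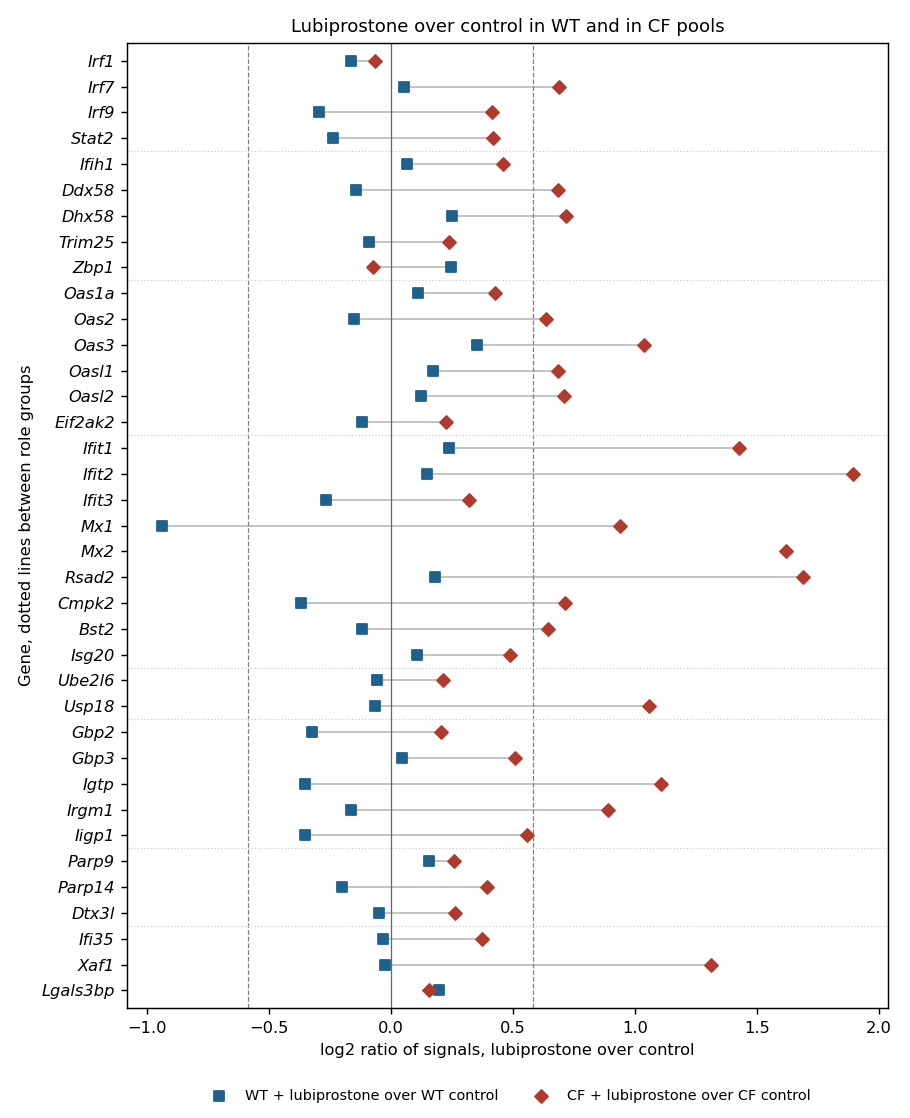
log2 ratio of lubiprostone over control for each measured interferon-stimulated gene in WT (squares) and in CF (diamonds), with dashed lines at 1.5-fold. WT ratios lie between -0.94 (Mx1) and 0.35 (Oas3), CF ratios between -0.07 (Zbp1) and 1.90 (Ifit2), and Mx2 has no WT ratio because both its WT signals were below the median, as was its CF control signal.

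The genotypes were set side by side first without treatment. In CF control over WT control 25 of 36 genes had a ratio above 1 with a median of 0.30, beside -0.02 over all 11806 genes. At 1.5-fold 8 genes were higher and 1 was lower (Ddx58), where 7.95% of all genes were higher and 11.8% lower. With the arrays set to the same median the counts were 13 and 0, beside 14.2% and 7.81% of all genes, and the median of all genes was 0.16. With signals below the median set to it, 7 were higher, Dhx58 dropping out. None passed 3-fold in this comparison, against 1.16% higher and 1.82% lower among all genes.

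Between the treated pools the ratios were larger. In CF + lubiprostone over WT + lubiprostone 36 of 37 genes had a ratio above 1 with a median of 0.87, beside 0.0026 over all 11792 genes, and Ube2l6 (-0.16) was the exception. At 1.5-fold 24 genes were higher (23 of 36 without Mx2) and none lower, where 8.22% of all genes were higher and 8.86% lower. At 3-fold 6 were higher, or 7 with Mx2 taken by its raw signal, and none was lower, against 1.27% and 1.25% of all genes. These 6 were Ifit1, Ifit2, Mx1, Rsad2, Usp18 and Igtp, and Irgm1, with a log2 ratio of 1.58, lay just below the threshold. The genotype comparisons with and without treatment share no array, and across the 36 genes with both values their log2 ratios had a Pearson's r of 0.60 and a Spearman's rho of 0.70, beside 0.54 and 0.40 across all 11339 genes. Genes on 1 pair of arrays are not independent replicates, so these are descriptions. Each genotype comparison does share an array with CF + lubiprostone over CF control, and those values are set side by side only.

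**Figure D3:**
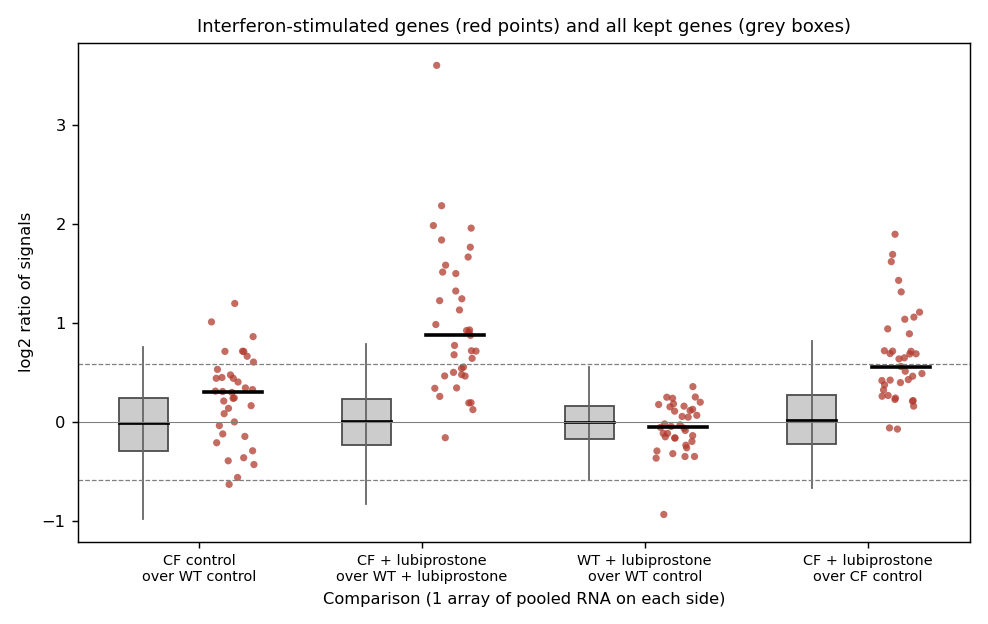
log2 ratios in the 4 comparisons for the interferon-stimulated genes (red points, black bar at their median) and for all genes compared (grey boxes from the 25th to the 75th percentile, whiskers from the 5th to the 95th), with dashed lines at 1.5-fold. The members' medians are 0.30, 0.87, -0.05 and 0.56 from left to right, the highest point of the treated pools (3.60) is Mx2 against a signal below the median, and the horizontal position of points within a column carries no value.

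The antiviral effectors held the highest ratios in CF + lubiprostone over CF control, those of Ifit2, Rsad2 and Ifit1, beside Mx2, whose rank is not known because its CF control signal was below the median. All 9 measured genes of this group had ratios above 1 there, 7 of them past 1.5-fold, with a median log2 ratio of 0.94. Both counts and the median include Mx2, which was kept only through the CF + lubiprostone array, where it was high. Mx2 is not among the 8 genes of the next 2 comparisons. In WT + lubiprostone over WT control 4 of 8 had a ratio above 1, and in CF control over WT control none of 8 passed 1.5-fold. Ifit2, which binds RNA and hampers translation, had signals of 360 (360.3), 400 (399.9), 488 and 1817. It stood alone on the last array, 3.72-fold above CF control and 4.54-fold above WT + lubiprostone. Ifit1, which binds viral RNA by its cap, had signals of 1682, 1983, 2335 and 6286. Its first 3 arrays lay close together and the fourth was 2.69-fold above CF control. Ifit3, a partner of IFIT1 encoded next to Ifit2, had signals of 839, 699, 638 and 797 and was highest on WT control, with a log2 ratio of 0.32 in CF + lubiprostone over CF control. The promoters of Ifit1 and Ifit3 printed above hold 3 ISRE cores each, and their ratios in that comparison were 2.69-fold and 1.25-fold.

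Rsad2, which encodes viperin, an enzyme that makes a chain-terminating nucleotide, had signals of 366, 414, 498 and 1609. CF + lubiprostone exceeded CF control 3.23-fold, and the 3 probe sets gave 3.38-fold, 3.96-fold and 2.51-fold. Cmpk2, the neighbouring gene whose product supplies nucleotides to viperin, had mean signals of 925, 717, 718 and 1178. Its 2 probe sets disagreed, with 1 at 1590 (1589.8), 1509, 1240 (1239.7) and 3223 and the other at 538, 340 (340.3), 416 and 431, so the 1.64-fold ratio of Cmpk2 in CF + lubiprostone over CF control rests on the first. No other protein-coding gene lies between Rsad2 and Cmpk2 in RefSeq.

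Mx1 and Mx2 encode dynamin-like GTPases against RNA viruses, and C57BL/6, like most inbred strains, carries a defective Mx1 allele. Mx1 had signals of 268, 140 (139.9), 261 and 500 (499.9). The lubiprostone arrays stood on opposite sides of their controls, 1.92-fold below in WT mice and 1.92-fold above in CF mice. Mx2 had signals of 24.1, 17.8, 70.3 and 216, of which only the last was above the median of its array, which put it at least 1.97-fold above CF control and at least 1.76-fold above WT + lubiprostone. Bst2, which tethers budding virions to the cell, had signals of 448, 413, 411 and 644 and its last array stood 1.56-fold above both CF control and WT + lubiprostone. The other 3 arrays lay between 411 and 448. Isg20, an exonuclease of RNA, stayed under the 75th percentile of every array and had a 1.40-fold ratio of CF + lubiprostone to CF control.

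The OAS family, which makes a second messenger on sensing double-stranded RNA, and PKR (Eif2ak2), the kinase that stops translation on the same signal, were compared between CF control and WT control. All 6 had ratios above 1 with a median log2 ratio of 0.53, and 3 passed 1.5-fold (Oas1a, Oasl1 and Oas2). Oas1a had signals of 1858, 2010 (2010.3), 3740 (3740.2) and 5024. Both CF arrays were above both WT arrays, by 2.01-fold without treatment and 2.50-fold with it. Oasl1, an OAS-like protein without the synthetic activity, had signals of 1462, 1650 (1649.7), 2394 and 3853, which rank the arrays as for Oas1a. Oasl2, its neighbour, which is active as an enzyme, had signals of 2488, 2714, 3153 and 5165 with the last array 1.64-fold above the third.

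Oas3 differed from Oas1a in the order of the arrays. Its signals were 398, 509, 470 (470.1) and 964, so CF control lay below WT + lubiprostone and CF + lubiprostone stood 2.05-fold above CF control. Oas2 and Eif2ak2 followed the order of Oas1a for the CF arrays, and in CF + lubiprostone over CF control they had ratios of 1.55-fold and 1.17-fold. The 3 probe sets of Eif2ak2 gave log2 ratios on both sides of 0 in that comparison. With lubiprostone in WT mice none of the 6 passed 1.5-fold, and their median on the log2 scale was 0.12.

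The interferon-inducible GTPases, which attack the vacuoles of intracellular microbes and are strongly induced by interferon gamma, had the lowest median of any group in WT + lubiprostone over WT control (-0.32), with 4 of 5 genes below 1 and none past 1.5-fold. In CF + lubiprostone over CF control all 5 were above 1 with a median of 0.56. Igtp (Irgm3) had signals of 1487, 1166, 1838 and 3960 (3960.1), which put CF + lubiprostone 2.15-fold above CF control and 3.40-fold above WT + lubiprostone. Irgm1, which governs the other members of its family, gave 869, 775, 1254 and 2322, which rank the arrays as for Igtp. Iigp1, which coats and breaks parasite vacuoles, had signals of 730 (729.7), 572, 1108 and 1632 and stood 1.52-fold above WT control on the CF control array. Its 2 probe sets gave 1.29-fold and 1.78-fold there, so only 1 of them passed 1.5-fold. In each of these 3 genes WT + lubiprostone was the lowest array and CF + lubiprostone the highest.

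Gbp2, a guanylate-binding protein, had signals of 538, 431, 883 and 1019. Its 2 probe sets, 1 of which may match other transcripts by its suffix, both placed the CF arrays above the WT arrays, and the ratio of CF + lubiprostone to CF control was 1.15-fold. Gbp3 had a ratio of 1.42-fold in that comparison and its CF control and WT control signals were nearly equal.

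Of the 4 transcription factors of the interferon response, Stat2 was the 1 that passed 1.5-fold between the treated pools. Its signals were 376, 319, 470 (470.3) and 629, so CF + lubiprostone was 1.98-fold above WT + lubiprostone. Irf7, the factor that amplifies type I interferon production, had signals of 1594, 1653, 1300 (1300.1) and 2095, with CF control the lowest and CF + lubiprostone the highest, a ratio of 1.61-fold. Irf1, the factor most tied to interferon gamma, had signals of 3603, 3216, 4245 and 4064. Its CF + lubiprostone signal was 1.04-fold below that of CF control and both CF arrays were above both WT arrays. Irf9, the DNA-binding partner of STAT proteins, had a log2 ratio of 0.42 in CF + lubiprostone over CF control and -0.30 in WT + lubiprostone over WT control.

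The sensors of foreign nucleic acid did not share 1 order of arrays. Zbp1, a sensor of Z-form nucleic acid that can start necroptosis, had signals of 549, 652, 1257 and 1194. It had the highest ratio of any member in CF control over WT control, 2.29-fold, and CF + lubiprostone lay 1.05-fold below CF control. Ddx58, which encodes RIG-I, ran the other way with mean signals of 475, 431, 306 and 493. CF control was 1.55-fold below WT control, with all 3 probe sets below 1, and CF + lubiprostone was 1.61-fold above CF control, so that the CF + lubiprostone signal was close to that of WT control.

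Dhx58, which encodes LGP2, a relative of RIG-I without a signalling domain, had mean signals of 109, 130 (129.7), 173 and 284. With its WT signals set no lower than the array median its genotype ratio was at least 1.13-fold in the control pools and at least 1.72-fold in the treated pools. Ifih1, which encodes MDA5, a sensor of long double-stranded RNA, had signals of 3105, 3248, 3285 and 4518. The first 3 arrays lay within a narrow range and CF + lubiprostone was 1.38-fold above CF control. Trim25, the ubiquitin ligase that helps RIG-I to signal, was 1.18-fold higher in that comparison, and 1 of its 3 probe sets was below 1.

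The ISG15 system attaches a ubiquitin-like protein to other proteins. Usp18, the protease that removes ISG15 and damps the interferon receptor, had signals of 827, 790 (790.0), 1501 and 3123. The WT arrays were almost equal, CF control stood 1.82-fold above WT control and CF + lubiprostone 2.08-fold above CF control. Ube2l6, the conjugating enzyme of the same system, had signals of 385, 370 (369.6), 285 and 330.5, both CF arrays being below both WT arrays. That order rests on the 1 probe set that carries its symbol here. The study gives Ube2l6 the opposite direction both in CF control and with lubiprostone in CF mice, and which probe set it read is not given in the sources used here. The probe set listed for Isg15 and Gm9706, which stands in no count, had signals of 869, 1129, 1181 and 2929 with CF + lubiprostone 2.48-fold above CF control.

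Parp9, Parp14 and Dtx3l, neighbours on chromosome 16 whose products act as ADP-ribosyl transferases and as a partner ubiquitin ligase, showed small ratios in 1 direction. All 3 were above 1 in CF control over WT control, with a median log2 ratio of 0.40, and in CF + lubiprostone over CF control, with 0.27. Parp14 had signals of 676, 589, 838 and 1103 with a 1.87-fold ratio between the treated pools. Dtx3l had signals of 2587, 2503, 3416 and 4106 and a 1.64-fold ratio in that comparison. Neither passed 1.5-fold with lubiprostone in CF mice.

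Xaf1, a factor that promotes cell death by binding the inhibitor XIAP, had 1 kept probe set with signals of 1087, 1070.5, 736 and 1827. CF control was the lowest array, 1.48-fold below WT control, and CF + lubiprostone the highest, 2.48-fold above CF control. Lgals3bp, a secreted glycoprotein that binds galectins, had signals of 4626, 5304, 5177 and 5773, and Ifi35 a log2 ratio of 0.37 in CF + lubiprostone over CF control. Of all 37 genes, 11 did not pass 1.5-fold in any comparison, and the 10 of these with signals at or above the 75th percentile of an array had log2 ratios of -0.06 (Irf1) to 0.51 (Gbp3) with lubiprostone in CF mice.

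Measured by more than 1 kept probe set, 13 members allowed a look at the spread within arrays. The SD of the log2 ratio between probe sets of a gene had a median of 0.31 over these members in CF + lubiprostone over CF control, beside 0.26 over all 5569 such genes, and was largest for Cmpk2 (0.94). In that comparison all kept probe sets were above 1 in 10 of the 13 genes, all were below 1 in Zbp1, and they were mixed in Eif2ak2 and Trim25. In CF + lubiprostone over WT + lubiprostone all were above 1 in all 13 genes. In WT + lubiprostone over WT control 6 of 13 were mixed. Probe sets marked by their suffix as able to match several transcripts made up 5 of the member probe sets (Gbp2, Trim25, 2 of Ifi35 and the one for Isg15 and Gm9706).

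**Figure D4:**
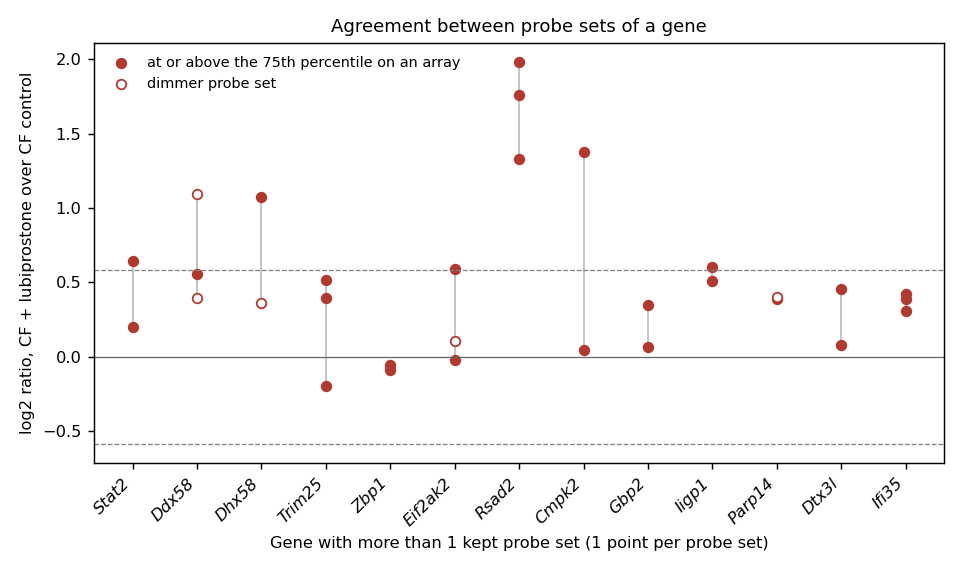
log2 ratio of CF + lubiprostone over CF control for each kept probe set of the 13 members with more than 1, filled where the signal reached the 75th percentile of an array and open where it was dimmer, with dashed lines at 1.5-fold. The probe sets of Rsad2 lie between 1.33 and 1.98 and those of Cmpk2 at 0.05 and 1.38.

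Other genes of the pathway were read from a list of 36. Of these, 27 were kept, and 13 of the 27 (48.1%) were highest on the CF + lubiprostone array, against 26.6% of all genes. In CF + lubiprostone over CF control 20 of 27 had a ratio above 1 with a median of 0.27, and 5 were higher and 1 lower at 1.5-fold. That is 18.5% higher, where 9.43% of all genes were, and with signals below the median set to it the count was 4 (Nlrc5, Socs3, Irf2 and Ikbke), without Tyk2. In CF control over WT control 3 of 27 were higher (11.1%, against 7.95% of all genes) and 1 was lower, but with signals below the median set to it Socs3 alone was higher, without Socs1 and Sting1, and none was lower, without Tyk2. Between the treated pools 3 of 26 were higher (Nlrc5, Socs3 and Herc6; 11.5%, against 8.22%) and none lower. With lubiprostone in WT mice 1 of 26 was higher (Socs3; 3.85%, against 4.46%) and none lower.

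The ligands were not measured above the median of an array, with Ifnb1 at signals of 38.2, 59.3, 6.96 and 57.9 and Ifng at 51.8, 11.3, 1.32 and 74.4, and the other listed interferons were not analysed here. None of the 6 receptor chains passed 1.5-fold in any comparison, from Ifnar1 to the interferon lambda chains Ifnlr1 and Il10rb. In CF + lubiprostone over CF control 5 of the 6 were above 1. Ifnar2 lay just below the threshold there at 1.48-fold, and its 3 probe sets gave 1.72-fold, 1.57-fold and 1.21-fold. Tyk2, a kinase of the type I receptor, had signals of 296, 266, 150 (150.0) and 294, lowest on CF control. CF + lubiprostone was at least 1.27-fold above it, since 1 of its 2 probe sets was below the median there and the other gave 1.28-fold.

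Nlrc5, the transactivator of MHC class I genes that interferon gamma induces, had signals of 199, 183, 209 and 539. As in Ifit2, 1 array stood apart, CF + lubiprostone, 2.58-fold above CF control. Herc6, the ligase that attaches ISG15 in mice, had signals of 417, 345, 487 and 706 and was 2.05-fold higher between the treated pools. Irf2 and Ikbke, a factor and a kinase of interferon induction, each had a 1.58-fold ratio of CF + lubiprostone to CF control. Mavs, the adaptor of RIG-I and MDA5 on mitochondria, was 1.52-fold lower in that comparison, with signals of 1313, 1151, 1667 and 1096. Its 2 probe sets gave ratios of 0.56 and 0.77 there. Only the first passed 1.5-fold, and by its suffix it may match other transcripts.

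Socs3, an inhibitor of JAK signalling that many cytokines induce, had signals of 1096, 1937, 3924 and 7696. Lubiprostone went with a 1.77-fold ratio in WT mice and a 1.96-fold ratio in CF mice, and both CF arrays were above both WT arrays. Socs1, the inhibitor more tied to interferon, was dim, with signals of 44.8, 14.8, 164 and 115, and the highest of these was on CF control.

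**Figure D5:**
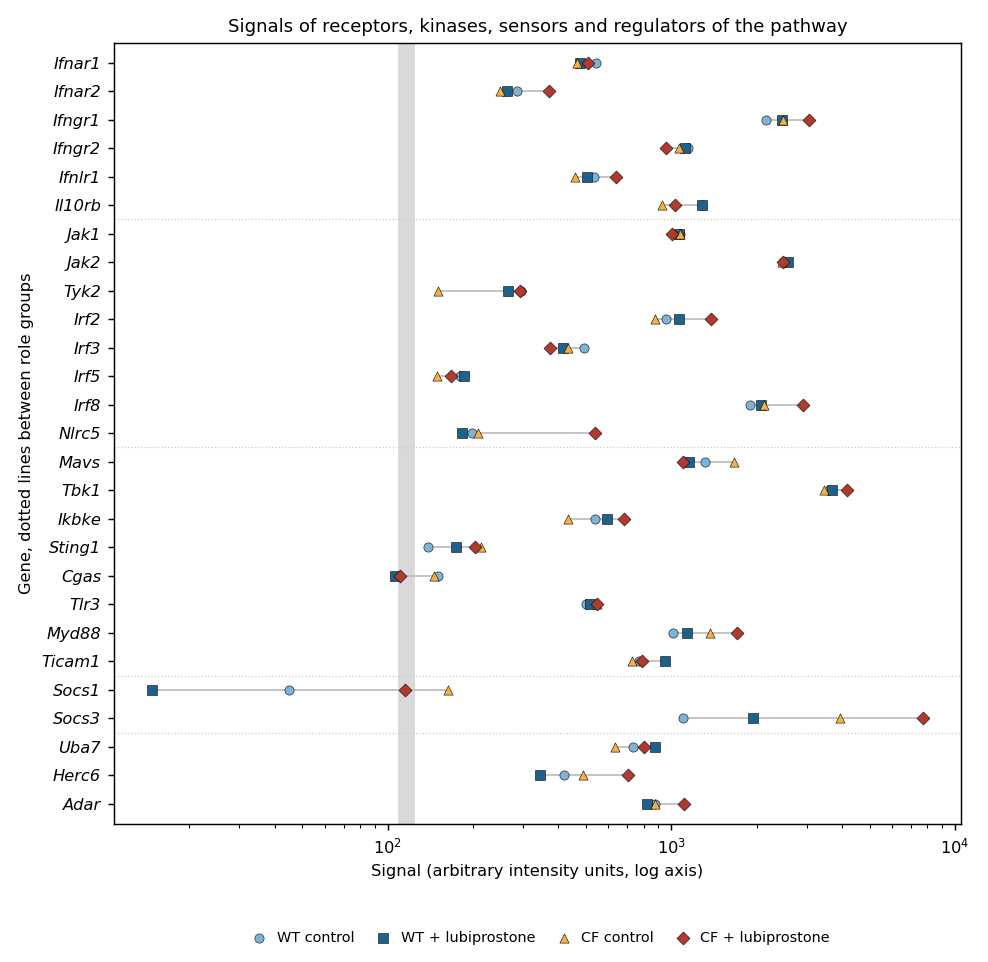
Signals of the 27 kept genes of the interferon pathway outside the member list (1 point per array, log axis in arbitrary intensity units), in groups by role, with a grey band at the medians of the arrays. Socs3 runs from 1096 to 7696 and Nlrc5 stands apart on CF + lubiprostone at 539, while no receptor chain at the top passes 1.5-fold in a comparison.

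Markers of cell types were read beside these values, and their part in the results was not tested. Summed over kept genes, markers of T cells, intraepithelial lymphocytes and NK cells (11 of 13 kept) had signals of 11042, 9975, 6620 (6620.3) and 8823. Gzma was the largest part of that sum, at 5874, 5753, 4015 and 5319. Both CF arrays were below both WT arrays in the sum. With lubiprostone in CF mice 8 of the 9 markers compared were above 1, with a median log2 ratio of 0.26 and Ccl5, a chemokine of activated T cells, highest at 1.35. Cd3e was at 43.9 and 20.4 on the CF arrays, below their medians. Markers of macrophages and dendritic cells (10 of 10 kept) summed to 18151, 17621, 15218 and 15649, with Lyz2 the largest part at 9328, 8885, 7066 and 7439. Between the treated pools 3 of these 10 were above 1 and 7 below. Cd14 alone passed 1.5-fold there, with signals of 270, 363, 471 and 855. Markers of plasmacytoid dendritic cells (4 of 5 kept) summed to 863, 736, 1264 and 2111, an order set by Ly6d at 301 (300.5), 256, 723 and 1538. The defining marker Siglech was at 159, 39.6, 54.9 and 20.8 and below the median on the last 3 arrays. B and plasma cell markers (5 of 6 kept) summed to 22035, 22158, 26012 and 31230 (31230.5), and Jchain held most of the sum. Between the treated pools 2 of these 5 were above 1 (Mzb1 and Jchain) and 3 below, with Cd79a at 196, 264, 98.4 and 150 (150.1), Cd79b at 392, 254, 249 and 218, and Ms4a1 at 175, 105, 71.3 and 63.1.

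Enterocyte markers (8 of 9 kept) summed to 212241, 224749, 156980 and 173148, and mast cell markers (4 of 4 kept) to 735, 506, 9918 and 995. The mast cell sum peaked on CF control. Xist, which is expressed from the inactive X chromosome of female cells, had signals of 308, 976, 680 (679.8) and 1012, lowest on WT control and highest on the lubiprostone arrays of both genotypes. The labels do not give the sex of the pooled mice.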

How the data were processed

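Total RNA of mouse small intestine, pooled by group, was measured on 4 arrays, 1 for each genotype with and without lubiprostone, grouped by their labels. Per the labels and the methods, the authors extracted the intensities with GCOS, and the submitters' processing notes name MAS5. The deposited signals are linear intensities, already scaled to a trimmed mean of 500.0, with no detection calls. The precision is limited by the number of arrays, 1 per group.

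Of 45101 probe sets, 34958 carried 1 gene symbol, 932 several and 9211 none in the annotation used. Symbols of 34754 of these were updated by gene identifier. Of those with 1 symbol, 21756 were kept (signal at or above the array's median, the 50th percentile, on at least 1 of 4 arrays), which gave 12259 genes. Log2 ratios of a gene's kept probe sets were averaged, and a gene entered a comparison when 1 of them reached the median on 1 of the 2 arrays. Ratios were called at 1.5-fold and 3-fold, and no test was run because each group is 1 array. The steps were tested on simulated data.

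The members and lists were chosen with earlier results of these data known. Signals on all arrays are given for members that reached the 75th percentile of an array and passed 1.5-fold in a comparison (23 genes), for the member with the highest signal in each role group, and for genes past 3-fold. Pathway genes were named by the same limits. Other genes named (Isg15, Ifi44, Isg20, Ifit3, Ube2l6 and members given by 1 ratio) were chosen after their values were seen. Promoters came from RefSeq (GRCm38.p6), cut to 250 bases before the start, and ISRE and GAS letters were searched on both strands. The alternatives were quantile normalization, arrays scaled to the same median, a filter at the 75th percentile, no filter, linear signals averaged, the brightest probe set of a gene, dim signals set to the median, and probe sets in place of genes. Python 3.11 was used with numpy 2.4.6, pandas 2.3.3, scipy 1.17.1 and matplotlib 3.10.9.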

Additional observations from a re-analysis of the deposited data

Results flagged for a closer look

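Mx1 went opposite ways with lubiprostone in the 2 genotypes. Its log2 ratio was -0.94 in WT mice and 0.94 in CF mice (lubiprostone over control), and since each side is 1 array, the difference was not tested. Both ratios come from 1 probe set, and the WT + lubiprostone signal (139.9) was close to the median of that array (123).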

How the results depend on the processing

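Of 96 values (12 results under 8 alternatives), 84 stayed within 1.5 times the main count or, for medians, within the median SD between probe sets of a gene. No median changed direction. With the arrays scaled to the same median, the count at least 1.5-fold higher was 13 in CF control over WT control (8 as reported) and 11 in CF + lubiprostone over CF control (18 as reported). The count at least 1.5-fold lower in CF control over WT control (1, Ddx58) was 0 under that scaling, under quantile normalization, with the filter at the 75th percentile, with linear signals averaged and with the brightest probe set, and 2 with probe sets in place of genes. In WT + lubiprostone over WT control, the count lower (1, Mx1) was 2 without a filter, 0 with the filter at the 75th percentile and 2 with probe sets, and the count higher (0) was 1 with probe sets. The causes were not tested. Members' medians less those of all genes ranged over the settings that use genes from 0.79 to 0.91 in CF + lubiprostone over WT + lubiprostone, from 0.51 to 0.58 in CF + lubiprostone over CF control, from 0.27 to 0.38 in CF control over WT control and from -0.08 to -0.03 in WT + lubiprostone over WT control. At least 1.5-fold higher in every setting that gave them a ratio were 24 members in CF + lubiprostone over WT + lubiprostone, 11 in CF + lubiprostone over CF control and 7 in CF control over WT control. All these counts include Mx2, which had a ratio in CF control over WT control only without a filter. The direction changed between settings for Mx1, Bst2, Gbp3 and Ifi35 in CF control over WT control, for Eif2ak2 in CF + lubiprostone over CF control and for 5 genes in WT + lubiprostone over WT control. No paired analysis was possible because each group is 1 array of pooled RNA. Pools without replicates show neither the spread between mice nor that between arrays, and signals near the median of an array have only a bound.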
